A study of Mus musculus with 16 samples.

Results

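The genes described here are 8 transcription factors known for the identity of arterial, venous and lymphatic endothelium, Sox7, Sox17, Sox18, Nr2f2, Prox1, Foxc1, Foxc2 and Maf. They were found by gene symbol among the 38926 gene rows of a pair of expression tables and by Ensembl identifier among the 21603 rows of 6 further files, and all 8 were present in all of them. The study isolated endothelial cells (ECs) from mouse bone and sequenced their RNA in 16 libraries, and this gave 3 comparisons with separate control libraries and separate tables. The first set 3 libraries of mpECs, ECs of the metaphysis next to the growth plate, beside 3 libraries of bmECs, ECs of the marrow cavity of the shaft. Both came from 3-week-old wild-type mice on the C57BL/6 background, and the study's methods name the Cdh5-mTnG reporter, which marks ECs with red membranes and green nuclei. The second set 3 control libraries beside 3 libraries labelled ECKO, from whole bone at postnatal day 21. Both carried Yap1 flx/flx and Wwtr1 flx/flx, that is loxP-flanked alleles of the transcriptional co-activators Yap1 and Taz, and Cdh5CreERT2, a recombinase driven by an endothelial promoter and switched on by tamoxifen, was present in the libraries labelled ECKO and absent from the controls. The third set 2 Lats2 control libraries (Lats2 flx/flx, Cdh5CreERT2 negative) beside 2 Lats2 cKO libraries (Lats2 flx/flx, Cdh5CreERT2 positive), where Lats2 is a kinase that restrains Yap1 and Taz. The study's methods describe the ECs of the Lats2 experiment as 3-week-old too. All mutants were on the C57BL/6 background, their controls were Cre-negative littermates, and animals were grouped irrespective of sex. The methods describe biological triplicates, but the labels tie no library to an animal, so p-values measure the spread between these libraries.

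Sox7, Sox17 and Sox18 form the SoxF family, DNA-binding factors of the SOX type that endothelium uses together. Sox17 is best known for arteries, where it works with Notch signalling, Sox18 switches on Prox1 in the embryonic vein, and Sox7 shares functions with both. Nr2f2, also called COUP-TFII, is an orphan nuclear receptor that specifies veins by holding Notch signalling down. Prox1 is the master factor of lymphatic endothelium, Foxc2 is needed for lymphatic valves and acts with its close relative Foxc1 in vessels, and Maf is a bZIP factor of lymphatic and sinusoidal endothelium that T cells and macrophages also make.

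The unit is FPKM, a measure of fragments that allows for the length of a gene and the size of a library. Recovered reads on genes numbered 11118414 to 14756460 per library in mpECs and bmECs, 4878958 to 7152947 in the libraries of the Yap1/Taz experiment and 4732368 to 7071582 in the Lats2 libraries. One read in a gene of 2000 bases stands for 0.0405 to 0.1325 FPKM. The summed level of 10 pan-endothelial genes was 1609 to 2269 FPKM in mpECs and bmECs, 640.5 to 945.9 in the Yap1/Taz experiment and 2766 to 3306 in the Lats2 libraries, and none of the 10 was at 0 in all libraries of a group. Blood genes were also present in every sorted population, for example 5 erythroid genes that summed to 25650 to 55580 FPKM in mpECs and bmECs. Each comparison was tested with limma on log2(FPKM + 1), and fold changes on this scale understate the change of genes with low values. A gene was called where its p-value, adjusted by the Benjamini-Hochberg method across the whole table, was under 0.05.

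The targeted genes were checked first. In the libraries labelled ECKO, Yap1 was at 1.43, 1.03 and 0.989 FPKM against 1.07, 1.62 and 0.995 in the controls, a log2 fold change of −0.04 (SE 0.18, limma adjusted p = 0.934). Wwtr1, which encodes Taz, was at 15.3, 19.6 and 19.5 FPKM against 9.88 to 10.3 FPKM in the 3 controls, so that every library labelled ECKO lay above every control (log2 fold change 0.78, SE 0.12, limma adjusted p = 0.0272). These values go against the label, and they sum reads over whole genes, including parts outside the loxP sites. By quantitative PCR the study reported lower Yap1 and Wwtr1 transcripts in bone ECs isolated from these mutants, and it reported weaker Yap1 immunostaining of their bone vessels. Lats2 was at 19.2 and 19.2 FPKM in the Lats2 cKO libraries and at 23.4 and 24.0 FPKM in their controls, lower in both but not called (log2 fold change −0.29, SE 0.11, limma adjusted p = 0.125). The study reported a significant loss of Lats2 transcripts in isolated bone ECs of its Lats2 mutants.

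**Figure D1:**
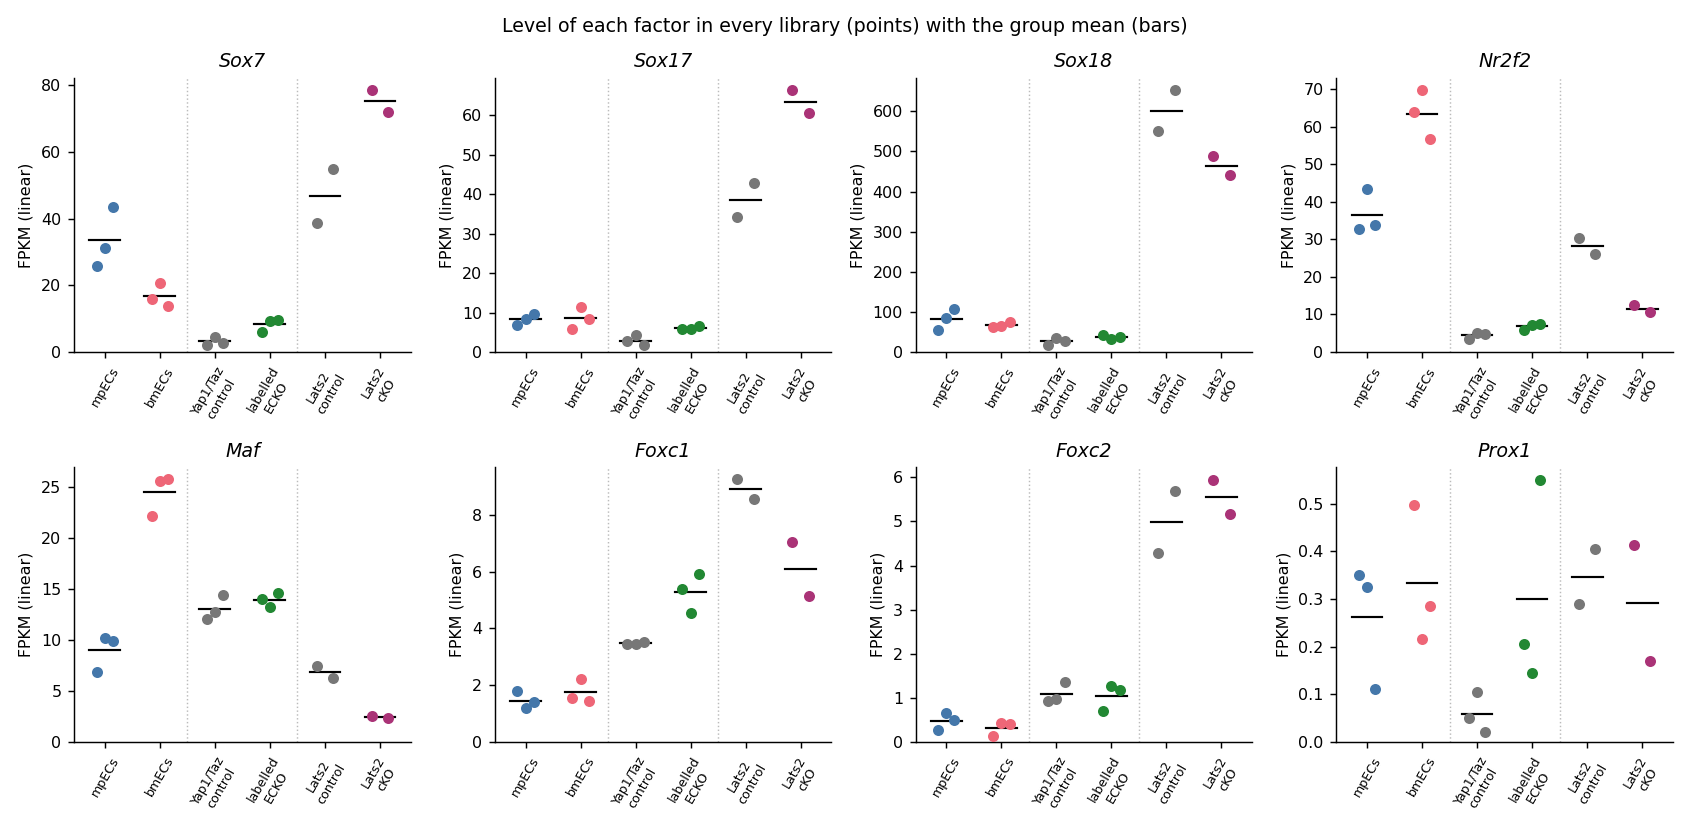
FPKM (linear axes, each starting at 0) of the 8 factors in all 16 libraries, with points for libraries and bars for group means. Dotted lines separate the 3 experiments, whose tables were normalized separately; Sox18 is at 551 and 652 FPKM in the Lats2 controls and at most 108 FPKM in the other 2 experiments.

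Sox18 was the most abundant of the 8 factors in all 6 groups, with group means of 26.3 to 602 FPKM. Prox1 was the lowest or next to lowest, with group means of 0.0583 to 0.347 FPKM. The order in between differed between groups. In mpECs the second place went to Nr2f2 at 36.6 ± 5.87 FPKM (mean ± SD, n = 3) followed by Sox7 at 33.5 FPKM (range 25.9 to 43.5, n = 3), and these overlapped. In bmECs the ranges of Sox18, at 67.4 ± 6.97 FPKM (n = 3), and Nr2f2, at 63.5 ± 6.46 FPKM (n = 3), overlapped at the top, and Maf, at 24.5 ± 2.03 FPKM (n = 3), stood above Sox7, at 16.8 ± 3.58 FPKM (n = 3), in every library. In the Yap1/Taz controls Maf came second at 13.1 ± 1.23 FPKM (n = 3), above Nr2f2 in every library, while Foxc1, Sox7 and Sox17 overlapped with each other. In the Lats2 controls Sox7 and Sox17 came next after Sox18 with overlapping values, and Nr2f2, at 28.3 ± 3.11 FPKM (n = 2), lay below both.

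The comparison of bmECs with mpECs asks how the ECs of the marrow cavity differ from those of the metaphysis. Of the 8 factors, 6 passed the filter of a mean of 1 FPKM. The venous factor Nr2f2 and the bZIP factor Maf were higher in bmECs, Sox7 was lower, and Sox17, Sox18 and Foxc1 were not called. Thus 2 of 6 were called higher, where 13.0% of the 11422 genes tested were, and 1 of 6 was called lower, where 10.5% were (23.5% in either direction). At an unadjusted limma p under 0.05, 2 of the 6 factors were higher and 1 was lower, and 4122 of the 11422 genes passed in either direction. The groups did not overlap for 3 of the 6 factors and for 41.3% of all genes. On recovered reads scaled by their totals the split of all calls was 891 higher and 2415 lower in place of 1481 and 1201, with the median of all genes at −0.20 on the log2 scale, and the same counts of factors were called. Centred on pan-endothelial genes the split was 711 higher and 1053 lower. Of the 10 pan-endothelial genes themselves, 4 were called higher in bmECs and 2 lower, with a median log2 fold change of 0.25.

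Among the SoxF factors, Sox7 was at 25.9, 31.2 and 43.5 FPKM in mpECs and at 15.8, 20.7 and 13.7 FPKM in bmECs. All 3 bmEC libraries lay below all 3 mpEC libraries, a mean 2.00-fold lower (log2 fold change −0.95, SE 0.20, limma adjusted p = 0.0129). Sox17 was at 6.95, 8.42 and 9.53 FPKM in mpECs and at 5.82, 11.5 and 8.38 FPKM in bmECs. These ranges overlapped fully, and the 95% interval of the log2 difference ran from −0.49 to 0.51 (limma adjusted p = 0.989). Sox18 was at 55.6, 83.5 and 108 FPKM in mpECs and at 62.9, 63.9 and 75.4 FPKM in bmECs, again overlapping (log2 fold change −0.24, 95% interval −0.74 to 0.26, limma adjusted p = 0.466). Without mpEC replicate 1, its lowest mpEC library, Sox18 was called lower in bmECs (log2 fold change −0.49, limma adjusted p = 0.0442).

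Nr2f2 was at 32.7, 43.3 and 33.8 FPKM in mpECs and at 63.9, 69.7 and 56.8 FPKM in bmECs. The groups did not overlap, and the mean was 1.73-fold higher in bmECs (log2 fold change 0.78, SE 0.13, limma adjusted p = 0.00362). Maf was at 6.83, 10.2 and 9.88 FPKM in mpECs and at 22.1, 25.6 and 25.7 FPKM in bmECs. Its lowest bmEC library exceeded its highest mpEC library by more than the spread within either group, a mean 2.73-fold difference (log2 fold change 1.37, SE 0.15, limma adjusted p = 0.000535). Both calls held when any 1 library was left out, with log2 fold changes of 0.71 to 0.91 for Nr2f2 and 1.21 to 1.46 for Maf.

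Because macrophages and T cells also make Maf, their markers are given beside it. Of 7 macrophage genes tested, Mrc1, a mannose receptor that sinusoidal endothelium also bears, was called higher in bmECs (98.8 and 331 FPKM in mpECs and bmECs), Lyz2 was called lower (1380 and 763.6 FPKM), and the complement genes C1qa, C1qb and C1qc were not called. The summed level of the macrophage list was 1160 to 2010 FPKM in mpECs and 1059 to 1329 FPKM in bmECs. The T cell list summed to at most 12.3 FPKM in mpECs and to 21.0 to 26.7 FPKM in bmECs, through Lck, its only tested gene (8.14 and 22.2 FPKM). Under the filter, the T cell receptor genes Cd3d (1.06 and 0.608 FPKM), Cd3e (0.537 and 0.263 FPKM) and Cd3g (0.493 and 0.440 FPKM) averaged lower in bmECs. Cd4, also under the filter, averaged higher (0.237 and 0.423 FPKM). The part of these cells in the Maf result was not tested. In bulk samples, fewer cells of a type and less RNA per cell cannot be told apart. Osteoblast genes also moved, with 4 of 6 tested called lower in bmECs and a summed level of 229.5 to 809.7 FPKM in mpECs and 44.6 to 59.3 FPKM in bmECs. Chondrocyte genes were called lower for 3 of 3 tested (summed level 14.2 to 18.3 FPKM in mpECs and 0.0378 to 0.103 FPKM in bmECs). Of 9 genes that respond to tissue dissociation, Jun (126 and 326 FPKM) and Junb (44.8 and 96.9 FPKM) were called higher in bmECs, and Fos was at 250 and 829 FPKM and not called. The part of these lists in the values of the factors was not tested.

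Prox1, Foxc1 and Foxc2 were low in both regions. Foxc1 was at 1.78, 1.18 and 1.39 FPKM in mpECs and at 1.55, 2.23 and 1.45 FPKM in bmECs, with overlapping ranges (log2 fold change 0.16, 95% interval −0.22 to 0.54, limma adjusted p = 0.529). Foxc2 was under the filter, on 9, 18 and 13 reads in mpECs and 3, 11 and 13 reads in bmECs. Prox1 was under the filter too, on 36, 27 and 9 reads in mpECs and 34, 17 and 28 reads in bmECs. With no filter, limma-voom on recovered reads called neither, with 95% intervals of the log2 difference of −1.96 to 0.58 for Foxc2 and −0.91 to 1.23 for Prox1.

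**Figure D2:**
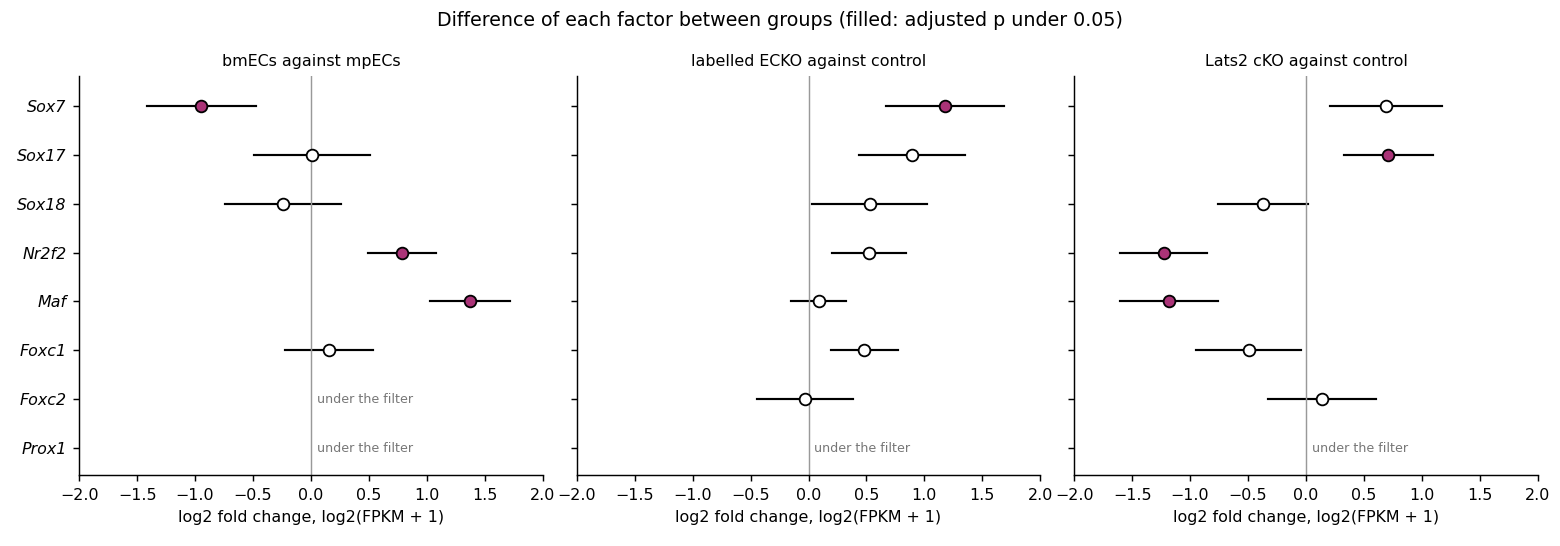
Log2 fold change on the log2(FPKM + 1) scale with its 95% interval for each factor in the 3 comparisons (filled points have a limma adjusted p under 0.05). Maf and Nr2f2 lie at 1.37 and 0.78 in bmECs against mpECs and at −1.19 and −1.23 in Lats2 cKO against control, and Sox7 lies at 1.18 in the libraries labelled ECKO.

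Of the other vessel genes, 11 of 17 tested of the arterial list were called lower in bmECs and 1 higher, with a median log2 fold change of −0.94 where that of all genes was −0.00068. Of the Notch ligand and receptor genes, Dll4, Jag1 and Notch1 were not called. Notch4 (2.02 and 0.760 FPKM in mpECs and bmECs, limma adjusted p = 0.00362) and Jag2 (2.765 and 0.891 FPKM, limma adjusted p = 0.0104) were called lower. So was Hey1 (11.2 and 2.68 FPKM, limma adjusted p = 0.00089). Gja5, an arterial connexin, averaged 47.1 FPKM in mpECs against 8.23 FPKM in bmECs (log2 fold change −2.39, limma adjusted p = 2.0e-05), and its partner Gja4 at 65.6 and 13.6 FPKM (−2.20, limma adjusted p = 5.2e-05). Gkn3 was the exception, at 1.54 and 9.12 FPKM (2.00, limma adjusted p = 6.7e-05). Of the venous list, 6 of 10 tested were called higher and 3 lower, with a median of 0.99. The 6 were Selp, Sele, Vcam1, Icam1, Lrg1 and Il1r1, which include the adhesion molecules that let leukocytes attach. Lrg1 was at 1763 and 7071 FPKM (2.00, limma adjusted p = 2.5e-05) and Sele at 55.1 and 229 FPKM (2.06, limma adjusted p = 9.3e-05). The apelin receptor Aplnr went the other way, at 382 and 92.4 FPKM (−2.02, limma adjusted p = 0.000225), as did Bst1, at 7.44 and 3.96 FPKM (−0.76, limma adjusted p = 0.0029). Emcn was also called lower, at 209.6 and 125.7 FPKM (−0.73, limma adjusted p = 0.00128). The venous ephrin receptor gene Ephb4, at 20.4 and 16.2 FPKM (−0.31, limma adjusted p = 0.230), was not called. Of the lymphatic list, 3 of 6 tested were called higher and 0 lower, with a median of 0.27. These were Mmrn1, at 70.8 and 218 FPKM (1.61, limma adjusted p = 0.000886), the VEGF-C receptor gene Flt4, at 74.2 and 160.5 FPKM (1.11, limma adjusted p = 0.000192), and Hhex, while Lyve1, Pdpn and Reln, which mark lymphatic vessels, were all under the filter. Flt4 and Mmrn1 are also expressed by sinusoids. Among relatives of the 8 factors, Foxp1 (16.1 and 9.69 FPKM, −0.67, limma adjusted p = 0.00177) and Sox13 were called lower.

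**Figure D3:**
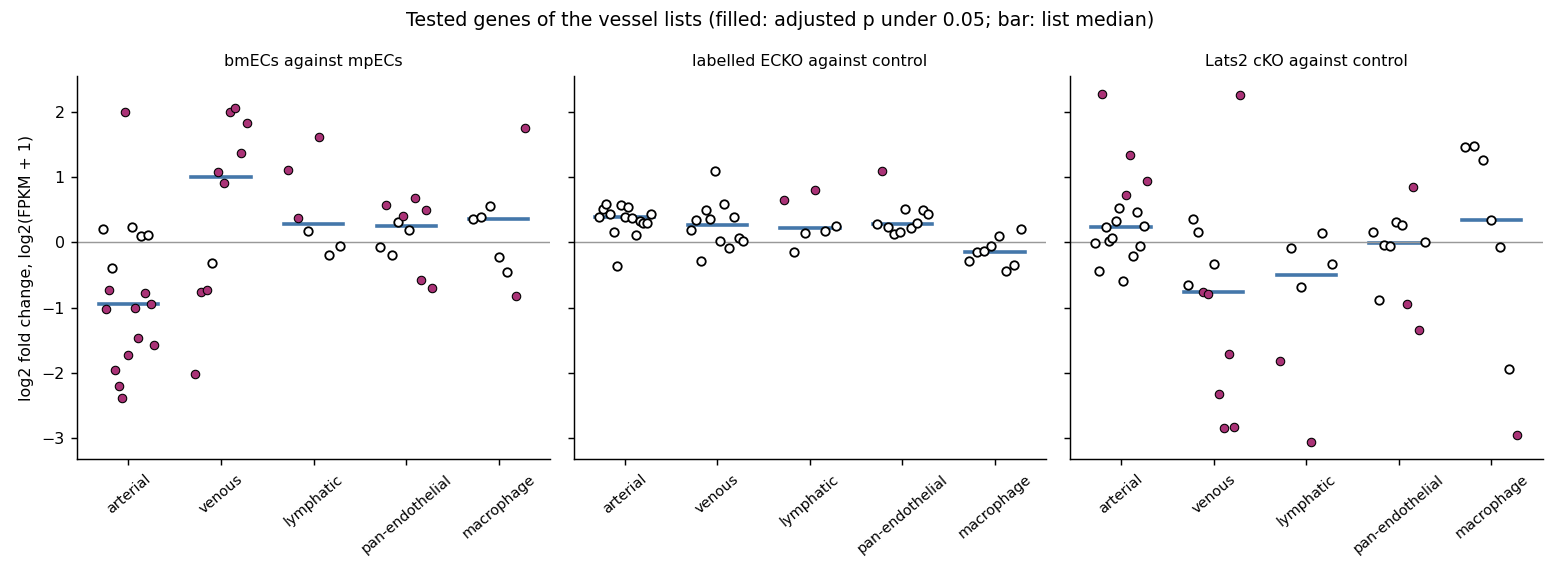
Log2 fold change on the log2(FPKM + 1) scale of each tested gene of 5 lists in the 3 comparisons (filled: limma adjusted p under 0.05; bar: list median). The arterial median is −0.94 and the venous median 0.99 in bmECs against mpECs, and they are 0.24 and −0.77 in Lats2 cKO against control.

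The comparison of libraries labelled ECKO with their controls asks how endothelial loss of Yap1 and Taz changes bone ECs, under the limit set by the Yap1 and Wwtr1 values above. Of the 8 factors, 7 passed the filter, and Sox7 alone was called, higher in the libraries labelled ECKO. That is 1 of 7, where 0.883% of the 11320 genes tested were called higher, and 0 of 7 were called lower, where 0.424% were (1.31% in either direction). At an unadjusted limma p under 0.05, 5 of the 7 were higher, namely Sox7, Sox17, Sox18, Nr2f2 and Foxc1, where 9.79% of all genes were, and 0 were lower, where 8.08% were. Counts at this looser threshold were added after the results were seen. The groups did not overlap for 4 of the 7 factors and for 23.6% of all genes. Pan-endothelial genes moved with this: their summed level was 640.5 to 683.4 FPKM in controls and 818.7 to 945.9 FPKM in the libraries labelled ECKO, 1 of 10 was called higher (Cldn5), and their median log2 fold change was 0.29. Osteoblast genes moved too, with 2 of 6 tested called lower, Col1a1 (20.9 and 5.41 FPKM in controls and libraries labelled ECKO) and Bglap (2.07 and 0.418 FPKM), and a summed level of 41.01 to 60.05 FPKM in controls and 13.2 to 30.9 FPKM in the libraries labelled ECKO. Of 4 megakaryocyte genes Ppbp was called higher (2.21 and 6.76 FPKM), and 0 of 33 tested genes of the macrophage, marrow stroma, chondrocyte, smooth muscle, B cell, T cell, neutrophil and erythroid lists were called by limma (1 higher and 9 lower at an unadjusted p under 0.05). The part of these cells in the values of the factors was not tested. The 7 tested factors are also given below with each library centred on the 10 pan-endothelial genes, which put the median of all genes at −0.39 and the split of all calls at 75 higher and 5651 lower in place of 100 and 48. On recovered reads the split was 206 higher and 152 lower. Of 9 genes that respond to tissue dissociation 0 were called, and the groups did not overlap for 5, where they did not for 23.6% of all genes. Of these 5, Junb (719 and 1100 FPKM in controls and libraries labelled ECKO), Atf3 (47.55 and 89.4 FPKM) and Hspa1a were higher, and Fos and Ier2 were lower. The part of these genes in the values of the factors was not tested.

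Sox7 was at 2.24, 4.63 and 2.60 FPKM in the controls and at 5.97, 9.18 and 9.66 FPKM in the libraries labelled ECKO. Every library labelled ECKO lay above every control, a mean 2.62-fold difference (log2 fold change 1.18, SE 0.23, limma adjusted p = 0.0423). Centred on pan-endothelial genes the log2 fold change was 0.79 (limma adjusted p = 0.0126). The call was not reached without control 1 (1.02, limma adjusted p = 0.0704), without control 3 (1.09, 0.107), without ECKO 2 (1.10, 0.209) or without ECKO 3 (1.06, 0.172), and the log2 fold change was 1.02 or more whichever library was left out. Sox7 stands in gene panels that the study drew from these samples, so that its direction here is not independent evidence.

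Sox17 was at 2.74, 4.19 and 1.79 FPKM in controls and at 5.70, 5.75 and 6.64 FPKM in the libraries labelled ECKO. The groups did not overlap, but the difference was not called over all genes (log2 fold change 0.89, SE 0.20, limma adjusted p = 0.0654). Centred on pan-endothelial genes the log2 fold change was 0.51 (limma adjusted p = 0.0523). On recovered reads it was called (log2 fold change 1.06, limma-voom adjusted p = 0.0408), but not with no filter (limma-voom adjusted p = 0.0563). Sox18 was at 16.5, 35.2 and 27.0 FPKM in controls and at 41.4, 32.8 and 36.2 FPKM in the libraries labelled ECKO, with overlapping ranges (log2 fold change 0.53, SE 0.22, limma adjusted p = 0.250).

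Nr2f2 was at 3.55, 4.96 and 4.82 FPKM in controls and at 5.95, 7.10 and 7.35 FPKM in the libraries labelled ECKO, without overlap and not called (log2 fold change 0.52, SE 0.14, limma adjusted p = 0.0976). Foxc1 was at 3.43, 3.46 and 3.52 FPKM in controls and at 5.37, 4.54 and 5.91 FPKM in the libraries labelled ECKO, also without overlap and not called (log2 fold change 0.48, SE 0.13, limma adjusted p = 0.0909). Centred on pan-endothelial genes, the log2 fold changes of Sox18, Nr2f2 and Foxc1 were 0.14, 0.14 and 0.10. Levels divided by the pan-endothelial sum showed the same for Nr2f2, at 5.39, 7.26 and 7.52 per 1000 in controls and 7.26, 7.72 and 7.77 per 1000 in the libraries labelled ECKO, where control 3 lay above ECKO 1.

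Maf, at 12.0, 12.7 and 14.4 FPKM in controls and 14.0, 13.2 and 14.6 FPKM in the libraries labelled ECKO, had a 95% interval of the log2 difference from −0.15 to 0.32 (limma adjusted p = 0.717), and centred on pan-endothelial genes its log2 fold change was −0.30. Foxc2 was at 0.929, 0.961 and 1.37 FPKM in controls and at 0.708, 1.26 and 1.16 FPKM in the libraries labelled ECKO, on 9 to 23 reads, with a 95% interval from −0.45 to 0.38, and centred its log2 fold change was −0.42 (limma adjusted p = 0.0863). Prox1 rested on 2, 6 and 1 reads in controls and on 8, 7 and 26 reads in the libraries labelled ECKO. It was under the filter, and with no filter it was not called (limma adjusted p = 0.321 and limma-voom adjusted p = 0.159).

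Among the other vessel genes, 0 of 15 arterial and 0 of 12 venous genes tested were called, with median log2 fold changes of 0.39 and 0.27 against −0.0047 for all genes and 0.29 for the pan-endothelial list. At an unadjusted limma p under 0.05, 11 arterial and 6 venous genes were higher and 0 were lower in either list. Of 6 lymphatic genes tested, 2 were called higher. These were Mmrn1, at 16.2 FPKM in controls and 29.0 FPKM in the libraries labelled ECKO on average (0.81, limma adjusted p = 0.0235), and Flt4, at 53.5 and 84.1 FPKM (0.64, limma adjusted p = 0.0347). Of 13 tested relatives of the 8 factors only Mafk, a small Maf protein, was called higher (23.0 and 34.0 FPKM, 0.54, limma adjusted p = 0.0382).

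The comparison of Lats2 cKO with its controls asks what endothelial loss of the kinase changes. Sox17 was higher in the Lats2 cKO libraries and Nr2f2 and Maf were lower. Thus 1 of 7 factors tested was called higher, where 11.8% of the 12453 genes tested were, and 2 of 7 were called lower, where 9.98% were (21.8% in either direction). At an unadjusted limma p under 0.05, 2 of the 7 factors were higher and 3 were lower, and 4805 of the 12453 genes passed in either direction. The groups did not overlap for 6 of the 7 factors and for 68.2% of all genes, a background that reflects 2 libraries a group. Leaving out either control library left 0 genes called over the whole table (2724 and 2879 at an unadjusted limma p under 0.05), so that every call below rests on all 4 libraries or at least on both controls. With recovered reads scaled by their totals the split of all calls was 1274 higher and 2042 lower in place of 1468 and 1243, and centred on pan-endothelial genes it was 1845 and 780.

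Sox17 was at 34.3 and 43.0 FPKM in the controls and at 66.4 and 60.5 FPKM in the Lats2 cKO libraries. Both Lats2 cKO libraries lay above both controls, a mean 1.64-fold difference (log2 fold change 0.71, SE 0.15, limma adjusted p = 0.0311). The call was lost without control 1 (limma adjusted p = 0.214), control 2 (0.134), Lats2 cKO 1 (0.0889) or Lats2 cKO 2 (0.0851), with log2 fold changes of 0.55 to 0.87. Sox7 was at 38.8 and 55.0 FPKM in controls and at 78.5 and 72.0 FPKM in the Lats2 cKO libraries, without overlap and just short of the threshold (log2 fold change 0.69, SE 0.19, limma adjusted p = 0.0570). Centred on pan-endothelial genes it was called (0.86, limma adjusted p = 0.0189), as it was when genes under a mean of 5 FPKM were left out (limma adjusted p = 0.0417).

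Sox18 went the other way from its relatives, at 551 and 652 FPKM in controls and at 487 and 440.3 FPKM in the Lats2 cKO libraries. The groups did not overlap and the difference was not called (log2 fold change −0.37, 95% interval −0.76 to 0.014, limma adjusted p = 0.140), although it was on recovered reads (−0.51, limma-voom adjusted p = 0.0416). The share of Sox18 in the summed FPKM of the SoxF factors was 88.3% and 86.9% in controls and 77.1% and 76.9% in the Lats2 cKO libraries.

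Nr2f2 was at 30.5 and 26.1 FPKM in the controls and at 12.4 and 10.6 FPKM in the Lats2 cKO libraries. Both Lats2 cKO libraries lay under both controls by more than the spread within a group, a mean 2.46-fold difference (log2 fold change −1.23, SE 0.15, limma adjusted p = 0.0109). Maf was at 7.46 and 6.22 FPKM in controls and at 2.51 and 2.36 FPKM in the Lats2 cKO libraries, a mean 2.81-fold difference (log2 fold change −1.19, SE 0.17, limma adjusted p = 0.0135). Without control 1 the adjusted p was 0.133 for Nr2f2 and 0.147 for Maf, without control 2 it was 0.113 and 0.119, and without Lats2 cKO 2 that of Maf was 0.0554 (limma in each case). The log2 fold changes stayed between −1.34 and −1.12 for Nr2f2 and between −1.30 and −1.07 for Maf over the 4 libraries left out.

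Foxc1 was at 9.27 and 8.55 FPKM in controls and at 7.04 and 5.14 FPKM in the Lats2 cKO libraries, without overlap and not called (log2 fold change −0.50, SE 0.18, limma adjusted p = 0.108), and on recovered reads it was called (−0.73, limma-voom adjusted p = 0.0403). Foxc2 was at 4.28 and 5.68 FPKM in controls and at 5.94 and 5.17 FPKM in the Lats2 cKO libraries, overlapping (95% interval of the log2 difference −0.33 to 0.60). Prox1 was under the filter, on 12 and 20 reads in controls and 13 and 7 reads in the Lats2 cKO libraries.

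Marker genes of other cells moved with the Lats2 groups. The macrophage list summed to 546.1 to 659.2 FPKM in controls and 83.4 to 316.5 FPKM in the Lats2 cKO libraries, mainly through Lyz2 (443 and 149 FPKM, not called) and Mrc1 (144 and 18.8 FPKM, called lower), while C1qa, C1qb and C1qc, at 1.19 to 3.04 FPKM in controls on average, had log2 fold changes of 1.26 to 1.47 and were not called. B cell genes were called lower for 4 of 4 tested, and smooth muscle and pericyte genes higher for 3 of 3 tested (summed level 7.29 to 12.9 FPKM in controls and 36.5 to 56.7 FPKM in the Lats2 cKO libraries). The T cell gene Lck was called lower (9.28 and 2.42 FPKM), and the T cell list summed to 11.2 to 11.6 FPKM in controls and 3.42 to 5.62 FPKM in the Lats2 cKO libraries. Cd3d was lower and not called, and Cd3e, Cd3g and Cd4, all under the filter, averaged higher in Lats2 cKO. Neutrophil genes were called lower for 4 of 6 tested and the megakaryocyte gene Pf4 was called lower, while the 5 erythroid genes were lower in both Lats2 cKO libraries than in both controls and not called (median log2 fold change −2.58). Marrow stroma genes were called higher for 2 of 5 tested. Of 6 osteoblast genes tested, Spp1 was called higher (5.20 and 39.9 FPKM in controls and Lats2 cKO) and 0 were called lower. The median log2 fold change of the list was −0.50. Col1a1 (23.4 and 6.275 FPKM), Col1a2 (8.24 and 2.48 FPKM), Bglap (2.85 and 0.702 FPKM) and Ibsp (3.78 and 2.67 FPKM) averaged lower and were not called. Alpl, at 3.48 and 3.73 FPKM, was not called either. The part of these cells in the values of the factors was not tested. The pan-endothelial sum was 3009 to 3306 FPKM in controls and 2766 to 2940 FPKM in the Lats2 cKO libraries, with Pecam1 called higher and Kdr and Tek called lower.

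Of 16 arterial genes tested 4 were called higher, where 11.8% of all genes were, and 0 lower, where 9.98% were. Their median log2 fold change was 0.24, where that of all genes was −0.0033. The 4 were the chemokine receptor gene Cxcr4 (5.10 FPKM in controls and 31.0 FPKM in Lats2 cKO on average, 2.27, limma adjusted p = 0.0197), the transcription factor gene Mecom (3.01 and 9.12 FPKM, 1.34, limma adjusted p = 0.00929), Jag2 and Unc5b. The other tested genes were not called. Their log2 fold changes ran from −0.59 (Jag1) to 0.53 (Hey1), with Efnb2 at 0.02, Gja4 at 0.07, Dll4 at 0.24 and Gja5 at 0.33. Of 11 venous genes tested 6 were called lower and 1 higher, with a median of −0.77. The adhesion genes Sele (156 and 22.2 FPKM, −2.84, limma adjusted p = 0.012) and Vcam1 (525 and 71.0 FPKM, −2.83, limma adjusted p = 0.00912) were lower, as were Selp, Icam1, Lrg1 and the venous ephrin receptor gene Ephb4, whereas Vwf was higher (3.86 and 20.4 FPKM, 2.25, limma adjusted p = 0.0252). Of 6 lymphatic genes tested 2 were called lower, Mmrn1 (84.5 and 9.75 FPKM, −3.06, limma adjusted p = 0.00899) and Flt4 (135 and 37.4 FPKM, −1.81, limma adjusted p = 0.0091), which sinusoids also express. Under the filter and not tested, Lyve1 (0.0322 and 1.49 FPKM), Ccl21a (0.193 and 1.52 FPKM), Pdpn (0 and 0.420 FPKM) and Tbx1 (0.104 and 0.504 FPKM) averaged higher in Lats2 cKO. Reln (0.123 and 0.0401 FPKM) averaged lower. Among relatives of the factors, Foxf1 was called higher (0.0348 and 2.26 FPKM).

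Of the 4 factors called in at least 1 comparison, 0 were called in all 3, and no difference between comparisons was tested. Maf and Nr2f2 had log2 fold changes of 1.37 and 0.78 in bmECs against mpECs, 0.09 and 0.52 in the libraries labelled ECKO and −1.19 and −1.23 in Lats2 cKO. The log2 fold changes of Mmrn1 and Flt4 in the same order were 1.61 and 1.11, 0.81 and 0.64, and −3.06 and −1.81. Sox7 had −0.95, 1.18 and 0.69, and Sox17 0.0059, 0.89 and 0.71.

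Ratios within a library do not depend on how libraries were scaled and are given as a description. Sox7 over Nr2f2 was 0.794, 0.720 and 1.29 in mpECs and 0.248, 0.297 and 0.242 in bmECs, so that all bmEC libraries lay lower. In the controls of the Yap1/Taz experiment it was 0.629, 0.933 and 0.539, and in the libraries labelled ECKO it was 1.00, 1.29 and 1.31, all higher. The Lats2 controls had ratios of 1.27 and 2.11 and the Lats2 cKO libraries 6.32 and 6.81. Sox17 over Nr2f2 separated bmECs (0.0910, 0.165 and 0.147) from mpECs (0.213, 0.194 and 0.282) and Lats2 cKO (5.34 and 5.72) from its controls (1.13 and 1.65). It did not separate the libraries labelled ECKO (0.959, 0.809 and 0.904) from theirs (0.771, 0.845 and 0.372). Between bmECs and mpECs, Nr2f2 was called and Sox17, whose ranges overlapped fully, was not.

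**Figure D4:**
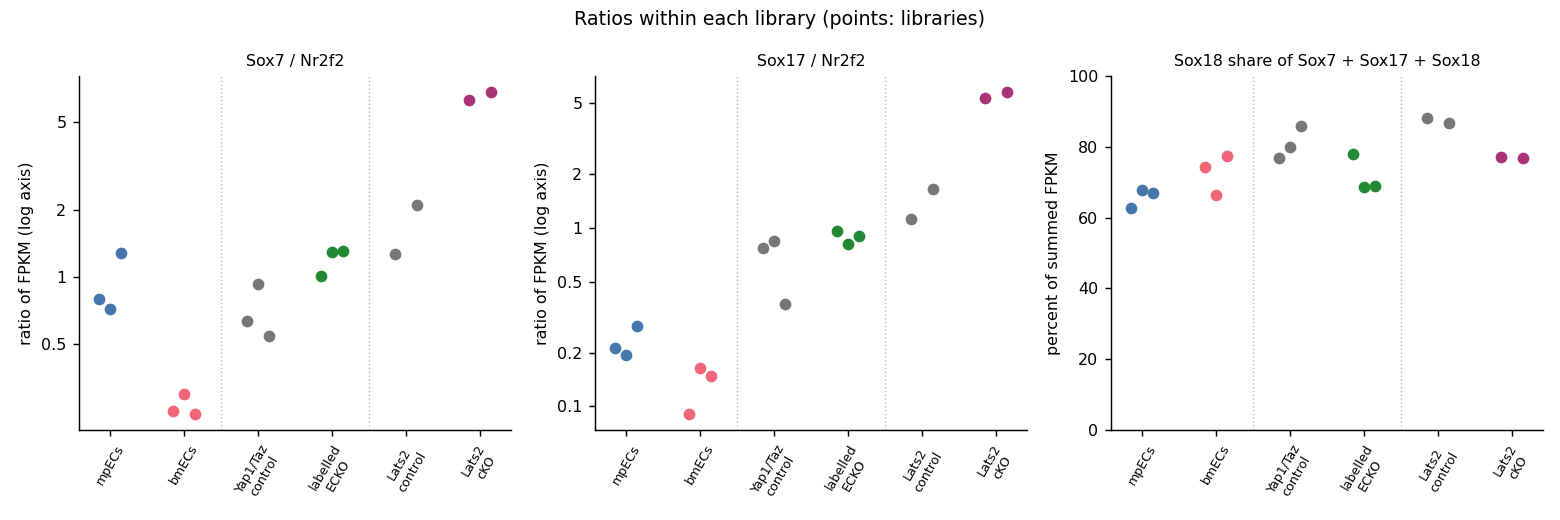
Ratios of FPKM within each library (points), with log axes for Sox7 over Nr2f2 and Sox17 over Nr2f2 and a linear axis from 0 for the percentage of Sox18 in the summed SoxF level. Sox7 over Nr2f2 is 0.242 to 0.297 in bmECs and 6.32 to 6.81 in the Lats2 cKO libraries, each apart from the control or partner group of its own table.

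The genes most like the called factors were sought among 9069 genes tested in all 3 comparisons, by the root mean square difference of log2(FPKM + 1) over the 16 libraries after centring within each comparison. The nearest to Nr2f2 were Pttg1ip (0.124) and Lmbr1 (0.134), and the nearest to Maf were Galnt15 (0.146) and Tspan3 (0.157). Galnt15 had log2 fold changes of 1.68 in bmECs, 0.07 in the libraries labelled ECKO and −1.06 in Lats2 cKO. The nearest to Sox7 were Irf2bpl (0.245) and Mmp15 (0.248), and to Sox17 Slc25a25 (0.212) and Raph1 (0.217), farther off than the neighbours of Nr2f2 and Maf.

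The 8 genes differ in position and composition. On GRCm38, in the GENCODE M21 annotation, Sox7 lies at chr14:63943673-63950732 (+), Sox17 at chr1:4490931-4497354 (−), Sox18 at chr2:181669836-181671640 (−) and Nr2f2 at chr7:70351944-70366735 (−). Prox1 lies at chr1:190118035-190170714 (−), Foxc1 at chr13:31806633-31812476 (+), Foxc2 at chr8:121116171-121118895 (+) and Maf at chr8:115682942-115707794 (−). Of the exonic bases of Sox17, 16.8% overlap Gm37587 on the other strand, and for Nr2f2, Maf and Prox1 the share is 7.5%, 5.3% and 1.6%. Their longest transcripts hold from 45.3% G and C (Nr2f2 and Prox1) and 47.4% (Maf) over 51.0% (Sox7), 52.6% (Sox17) and 55.9% (Foxc1) to 60.9% (Sox18) and 62.0% (Foxc2). Removing a trend with this content from each library changed none of the calls of the 8 factors in the 3 comparisons.

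Of the 8 factors, Nr2f2, Foxc1 and Prox1 have entries in the RefSeq promoter table of GRCm38.p6, which spans 250 bases before to 50 after a start, and Sox7, Sox17, Sox18, Foxc2 and Maf do not. As the called factor with an entry, Nr2f2 is shown by the 250 bases before its listed start, chr7:70366747-70366996 on the minus strand, with its 1 CpG in capitals.
Nr2f2 upstream: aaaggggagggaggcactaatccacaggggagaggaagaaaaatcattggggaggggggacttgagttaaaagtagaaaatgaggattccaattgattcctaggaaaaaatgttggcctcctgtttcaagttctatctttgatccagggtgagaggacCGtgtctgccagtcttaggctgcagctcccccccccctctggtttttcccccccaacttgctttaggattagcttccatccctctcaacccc
On either strand, the letters GGAATG (bound by TEAD factors, the partners of Yap1 and Taz), ACGTG (HIF), AACAAT (SOX) and GTAAACA (forkhead) were found in none of the 4 windows of these 3 genes, and in 14.7%, 19.6%, 10.7% and 3.65% of the 32851 windows of the table. The Nr2f2 window holds 49.7% G and C and the Foxc1 window 67.3%, where the median of all windows is 52.7%.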

How the data were processed

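RNA-seq libraries of sorted mouse bone ECs were analysed, namely 3 mpEC and 3 bmEC, 3 Yap1/Taz control and 3 labelled ECKO, and 2 Lats2 control and 2 Lats2 cKO libraries. The kit was TruSeq Stranded Total RNA. The authors mapped paired-end reads to mm10 (GRCm38) with TopHat and counted them per gene with HTSeq 0.6.1. They deposited FPKM values in all files, with a separate value for every gene and library. Median-of-ratios size factors of these values were 1.0 to 1.01 in all libraries. The libraries within a table were thus already on a like scale, and the alternative of median-of-ratios scaling could change little. How counts became FPKM, and the strand setting of the counting, are not given in the sources used here, so reads of a gene and of an antisense partner may be mixed. All columns were matched to samples by their names.

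From the deposited FPKM, log2(FPKM + 1) was fitted per comparison with limma 3.58.1 (R 4.3.3), with 1 term for the group and moderation with a mean-variance trend, over genes averaging 1 FPKM or more, two-sided, with Benjamini-Hochberg adjustment. Reads were recovered with GENCODE M21 exonic lengths, and 62.5% to 70.1% of values of up to 20 reads lay within 0.02 of a whole read. Replicates correlated at r = 0.963 to 0.992, and no 2 were alike within counting noise. The procedure was also run on simulated libraries. Their dispersion was fixed and not fitted to these libraries, so no rate of false calls is drawn from that run. Some results of the list of related factors are not reported here. Members and gene lists were chosen with earlier results of these data known. Named genes were the 8 factors, the targeted genes, the 2 called genes with the largest change per list and direction that averaged 5 FPKM or more, the 2 nearest in pattern, and single genes where a result turned on them. Alternatives changed pseudocount, filter, scaling, moderation, block, test, threshold and libraries. Those centred on pan-endothelial genes and with the GC trend removed were added after seeing the data. So were the counts of factors and listed genes at an unadjusted p under 0.05. Tables and plots were made in Python 3.11.15 (pandas 2.3.3; numpy 2.4.6; plots by matplotlib 3.10.9).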

Additional observations from a re-analysis of the deposited data

How the results depend on the processing

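Over all alternatives, 341 recomputed log2 fold changes of the factors gave 307 on the same side of zero and of the threshold, 18 that lost a call, 6 that gained one and 10 with the sign turned, none of the 10 in a factor called in that comparison. The turned values were those of Sox17 in bmECs against mpECs on recovered reads (−0.16), centred on pan-endothelial genes (−0.10), and without mpEC 1 (−0.10), bmEC 2 (−0.21) or bmEC 3 (−0.0017; range over libraries left out −0.21 to 0.23), of Maf in the libraries labelled ECKO centred on pan-endothelial genes (−0.30), of Foxc2 there without control 3 (0.061) or ECKO 1 (0.090; range −0.11 to 0.090), and of Foxc2 in Lats2 cKO on recovered reads (−0.0021) and without control 1 (−0.031; range −0.031 to 0.31). The causes were not tested.

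For bmECs against mpECs, recovered reads gave 891 genes higher and 2415 lower, centring on pan-endothelial genes 711 higher, and the threshold of the study's methods (adjusted p under 0.01, absolute log2 fold change over 0.5) 744 and 591, with 0 factors lower. Leaving out 1 library gave 1018 to 1353 genes higher, 799 (without mpEC 3) to 1026 lower, 2 factors higher and 1 to 2 lower.

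For the libraries labelled ECKO, a filter at 0.1 FPKM gave 55 genes higher and 26 lower and 0 factors (Sox7 adjusted p 0.0587), no filter 0 and 1 genes (2338 at an unadjusted limma p under 0.05) and 0 factors (0.127), no trend 10 and 7 genes and 0 factors (0.0782), recovered reads 206 and 152 genes and 2 factors (Sox7 and Sox17), the stricter threshold 0 and 1 genes and 0 factors, and centring on pan-endothelial genes 5651 genes lower. Leaving out 1 library gave 0 to 215 genes higher, 1 to 78 lower and 0 to 1 factors higher, with 11 and 9 genes without control 2, 8 and 6 without control 3, 215 and 78 without ECKO 1, and 0 and 1 without ECKO 2 or ECKO 3.

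For Lats2 cKO, a filter at 5 FPKM, which leaves out Maf, gave 2 factors higher and 1 lower, no filter 720 and 669 genes and 0 factors higher (Sox17 0.0591), no trend 0 factors higher (0.0529), recovered reads 2042 genes lower and 4 factors lower, centring 780 genes lower and 2 factors higher, and the stricter threshold 106 and 151 genes, with 0 factors higher and 0 lower. Leaving out 1 library gave 0 to 1446 genes higher, 0 to 1255 lower (0 and 0 without either control, 475 and 458 without Lats2 cKO 2), 0 factors higher and 0 to 2 lower.

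Replicate numbers were shared by the groups, but no label ties them to a shared animal or batch, and the correlations did not reach 0.1 for every pair of any comparison, so they were not taken to pair the libraries. Deviations of same-numbered libraries correlated at 0.307, 0.0876 and 0.102 for mpECs and bmECs, −0.175, −0.123 and −0.155 for the Yap1/Taz experiment and 0.0651 for Lats2, and not every library correlated best with its own number in these first 2 experiments. With the replicate number as a block, 29 genes were called higher and 16 lower in the libraries labelled ECKO in place of 100 and 48, and 1597 higher and 1475 lower in bmECs in place of 1481 and 1201, and no call of a factor changed. Depth limits Prox1 in all comparisons and Foxc2 in mpECs and bmECs, and the controls limit Lats2 calls.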

Other observations

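Levels of the factors also differed between the 3 experiments, whose tables were normalized separately. Divided by the pan-endothelial sum of the same library, Sox18 was at 27.7 to 56.1 per 1000 in mpECs and bmECs, at 25.04 to 51.6 per 1000 in the Yap1/Taz experiment and at 159 to 197 per 1000 in the Lats2 libraries. Nr2f2 ran in another order, at 17.6 to 32.3 per 1000 in mpECs and bmECs, 5.39 to 7.77 per 1000 in the Yap1/Taz experiment and 3.82 to 10.1 per 1000 in the Lats2 libraries. Maf was highest in the Yap1/Taz experiment, at 14.3 to 22.5 per 1000, and was at 4.25 to 11.8 per 1000 in mpECs and bmECs and 0.853 to 2.48 per 1000 in the Lats2 libraries. No 2 of these 3 ranges overlapped for Maf. The macrophage gene C1qa averaged 441 and 393 FPKM in the Yap1/Taz controls and libraries labelled ECKO. It averaged 6.89 and 8.77 FPKM in mpECs and bmECs and 1.19 and 5.24 FPKM in Lats2 controls and Lats2 cKO. Csf1r was in the same order highest at 49.6 and 36.0 FPKM in the Yap1/Taz experiment, whereas Lyz2 was highest in mpECs (1380 FPKM). The part of macrophages in these Maf levels was not tested.

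The G and C content of transcripts moved with these levels. Over 9941 genes, the log2 ratio of the Lats2 controls to mpECs and bmECs, both relative to the pan-endothelial sum, had a median of −1.22 for the 581 genes under 40% G and C, −0.80 for the 2694 genes from 45% to 50%, 0.05 for the 1676 genes from 55% to 60% and 0.94 for the 304 genes at 60% or more. The ratio was 2.35 for Sox18 (60.9% G and C), 1.82 for Foxc1 (55.9%), 1.54 for Sox17 (52.6%) and 0.20 for Sox7 (51.0%), and it was −1.43 for Nr2f2 (45.3%) and −1.87 for Maf (47.4%). Sox18 stood above 97.2% of the genes and Maf above 12.6%. The experiment, the genotype and the composition of the libraries cannot be told apart in this ratio, and each test of the report stays within one table.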
